A study of Rattus norvegicus with 6 samples.

Results

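The endoplasmic reticulum (ER) folds, glycosylates and checks the proteins that a cell secretes or places in its membranes. This report describes 54 genes of that machinery in mesenchymal stem cells of rat bone marrow, which adhere in culture and can form bone, fat and cartilage. The members were listed by name for their function, and all 54 were among the 21026 gene symbols of the deposited count table and among the 14273 genes tested. They comprise 8 stress sensors and sensor-processing genes, 8 chaperones, 8 disulfide enzymes, 6 genes of the lectin chaperone cycle, 6 oligosaccharyltransferase subunits, 4 translocon-associated proteins and 14 degradation genes.

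Polyadenylated RNA was sequenced from cells of Rattus norvegicus in 2 groups, 3 libraries labelled young and 3 labelled aged, with no other treatment in the labels. The labels give no strain, genotype, age in months, sex, passage or culture condition, and although they call the libraries biological replicates they do not say whether each came from its own animal. P-values therefore measure only library-to-library spread, part or all of which may be technical. The series title places the samples in a study of mitophagy, the cell's own double-stranded DNA and bone healing in old age, and the question answered here is how the ER genes differ between the groups.

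Nascent secretory proteins enter the ER through a translocon, receive N-linked glycans from the oligosaccharyltransferase, and fold with help from BiP, GRP94, calnexin, calreticulin and the protein disulfide isomerases. Proteins that fail to fold are returned to the cytosol and degraded by the proteasome, a route called ER-associated degradation. When unfolded proteins accumulate, IRE1, ATF6 and PERK start the unfolded protein response, in which spliced XBP1 and cleaved ATF6 raise the transcription of chaperone and degradation genes. Stromal cells of the osteoblast lineage secrete much procollagen, and these pathways serve that traffic.

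The DNA element through which ATF6 and XBP1 act is the ER stress response element (ERSE), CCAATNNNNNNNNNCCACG, and a shorter form is ERSE-II, ATTGG and CCACG with 1 base between them. RefSeq promoter windows of 300 bases (250 before to 50 after the annotated start, build GRCr8) were matched by symbol for 46 members, and both strands were searched for exact matches. The members without an entry were Ern1, Atf6, Manf, Pdia3, Pdia6, Ero1a, Derl1 and Os9. ERSE was found in 8 of 46 member windows, or 17.4%, against 0.131% of the 12992 windows of tested genes and 22 of all 33469 windows. The elements of these 8 members, among them the 3 with the largest rises and Xbp1, which fell, are shown read in the direction of the motif with its fixed bases in capitals:
Hsp90b1, first: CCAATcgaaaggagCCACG
Hsp90b1, second: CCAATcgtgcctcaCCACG
Derl3: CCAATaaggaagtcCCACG
Hspa5: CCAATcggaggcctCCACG
Creld2: CCAATtgaggctcgCCACG
Canx: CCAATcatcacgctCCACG
Ero1b: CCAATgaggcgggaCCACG
Calr: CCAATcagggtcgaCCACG
Xbp1: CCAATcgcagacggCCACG

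Their outer ends lay from 43 bases (Hspa5) to 232 bases (Calr) before the start. ERSE-II was found in 2 member windows, Hyou1 with 2 copies (ATTGGcCCACG and ATTGGgCCACG) and Herpud1 with 1 (ATTGGgCCACG), against 0.0847% of windows of tested genes. The sequence TGACGTGG, a core bound by ATF6 and XBP1, was found in Hyou1, where it overlaps an ERSE-II copy, and in Vcp, 4.35% of member windows against 0.839%. Such a match describes letters in a window and does not show binding. The members were listed for functions that the unfolded protein response serves. A high share of its element among them is therefore not an independent result.

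The whole windows of 4 genes follow, written along the gene 5′ to 3′ with ERSE in capitals, for the 3 members of the list that rose most and for Xbp1, which holds the element and fell. An element on the opposite strand appears as CGTGG, 9 bases and ATTGG. The windows are chr7:23012244-23012543 (minus strand), chr20:12766416-12766715 (minus), chr3:38452766-38453065 (plus) and chr14:84604373-84604672 (plus) in GRCr8.
Hsp90b1: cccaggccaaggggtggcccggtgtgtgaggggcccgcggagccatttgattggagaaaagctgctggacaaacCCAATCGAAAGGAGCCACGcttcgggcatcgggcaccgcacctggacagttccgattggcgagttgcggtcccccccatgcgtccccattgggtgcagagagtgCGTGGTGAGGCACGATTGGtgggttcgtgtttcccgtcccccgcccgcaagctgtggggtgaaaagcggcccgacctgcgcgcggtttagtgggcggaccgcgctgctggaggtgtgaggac
Derl3: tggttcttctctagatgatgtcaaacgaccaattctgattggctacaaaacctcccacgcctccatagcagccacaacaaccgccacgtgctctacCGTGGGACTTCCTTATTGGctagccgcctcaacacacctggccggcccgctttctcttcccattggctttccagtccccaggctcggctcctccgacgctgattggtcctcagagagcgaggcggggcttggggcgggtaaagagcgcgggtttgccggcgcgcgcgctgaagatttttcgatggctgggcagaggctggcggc
Hspa5: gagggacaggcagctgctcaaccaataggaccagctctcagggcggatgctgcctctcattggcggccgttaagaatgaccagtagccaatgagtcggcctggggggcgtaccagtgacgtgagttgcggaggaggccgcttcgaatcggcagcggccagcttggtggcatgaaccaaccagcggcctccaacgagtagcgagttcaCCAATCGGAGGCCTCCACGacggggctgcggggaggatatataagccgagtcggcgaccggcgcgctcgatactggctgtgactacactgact
Xbp1: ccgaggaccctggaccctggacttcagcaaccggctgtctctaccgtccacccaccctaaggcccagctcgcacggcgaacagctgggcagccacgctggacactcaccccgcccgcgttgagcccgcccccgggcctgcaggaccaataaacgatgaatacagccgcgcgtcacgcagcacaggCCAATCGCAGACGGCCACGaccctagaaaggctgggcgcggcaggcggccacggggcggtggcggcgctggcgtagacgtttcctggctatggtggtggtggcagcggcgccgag

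Libraries held 34638874 to 42479626 counts, and the 13 mitochondria-encoded genes took 1.07 to 1.36% of them in young and 4.25 to 4.46% in aged libraries. The 10 stromal markers summed to 30804 to 31455 CPM (the per-million scale of counts, with TMM-scaled library sizes) in young libraries. In aged ones they summed to 16944 to 17028 CPM, with 2 markers higher and 6 lower. Col1a1 made up most of the sum, at 19586 CPM on average in young and 10932 in aged libraries. Cxcl12 fell from 3387 to 203 CPM, Nt5e rose from 10.5 to 47.3 CPM, and Vcam1 was below 1 CPM in both groups. Plasma cells, which are rich in ER, were checked by 5 listed markers in the file. Jchain, Mzb1 and Tnfrsf17 were below 1 CPM on average in both groups, and the list summed to 283 to 294 CPM in young and 81.0 to 86.3 in aged libraries, mostly Sdc1 and Prdm1. Of 8 blood markers 1 was higher and 3 lower, the sum was 92.8 to 95.9 in young and 43.5 to 44.2 in aged libraries, Ptprc (CD45) had 0 counts in all young libraries, which allows up to 0.0791 to 0.0840 CPM (3 counts), and the largest were Cd14 (80.7 CPM on average) and Lyz2 (10.4) in young and Csf1r (21.8) and Cd14 (21.0) in aged libraries, where Lyz2 was at 0.173, against 0.321 for Csf1r in young ones. The 5 adipocyte markers, 4 of them lower and 0 higher, summed to 618 to 671 CPM in young and 40.8 to 43.9 in aged libraries, with Fabp4 at 321 and 0.0234 CPM on average. The 5 endothelial markers, 1 of them higher, summed to 0.211 to 0.471 CPM in young and 0.359 to 0.678 in aged libraries, with Cdh5 at 0 in the aged ones. The 5 osteoblast markers, 1 lower and 0 higher, summed to 9.10 to 10.3 and 8.39 to 11.0 CPM, with Dmp1 at 0 in the young libraries. The part of these other cells and of the mitochondrial share in the results below was not tested. In bulk RNA, more cells of a kind and more RNA per cell cannot be told apart.

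Aged cells held several times more RNA of the main ER chaperones GRP94 and BiP, and with TMM scaling each of the other roles had members that rose and members that fell. Of the 54 members, 29 were higher and 22 lower in aged cells by edgeR's quasi-likelihood test at a Benjamini-Hochberg adjusted p under 0.05, and 3 (Manf, Edem1 and Derl2) were not called. Over all tested genes 86.4% were called, 44.7% higher and 41.8% lower, so the share of members called (94.4%) says little by itself. The counts given below for each role and list are to be read beside these same shares. At least 2-fold rises were found for 18 members, 5 of them chaperones (33.3%, against 29.4% of all tested genes) and at least 2-fold falls for 5 (9.26%, against 21.0%). The groups did not overlap for 52 members, against 87.5% of all tested genes, with the aged libraries above for 30 (45.2% of all) and below for 22 (42.4%). The median log2 change of the members was 0.43 and that of all tested genes 0.05. With scaling by library size alone the log2 changes of all genes were higher by 0.34 (median), 37 members were called higher and 10 lower, and 78.7% instead of 56.9% of called members were the higher ones. Earlier work on these counts saw a list of genes with long transcripts rise, and whether the members' changes follow transcript length was not tested.

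**Figure D1:**
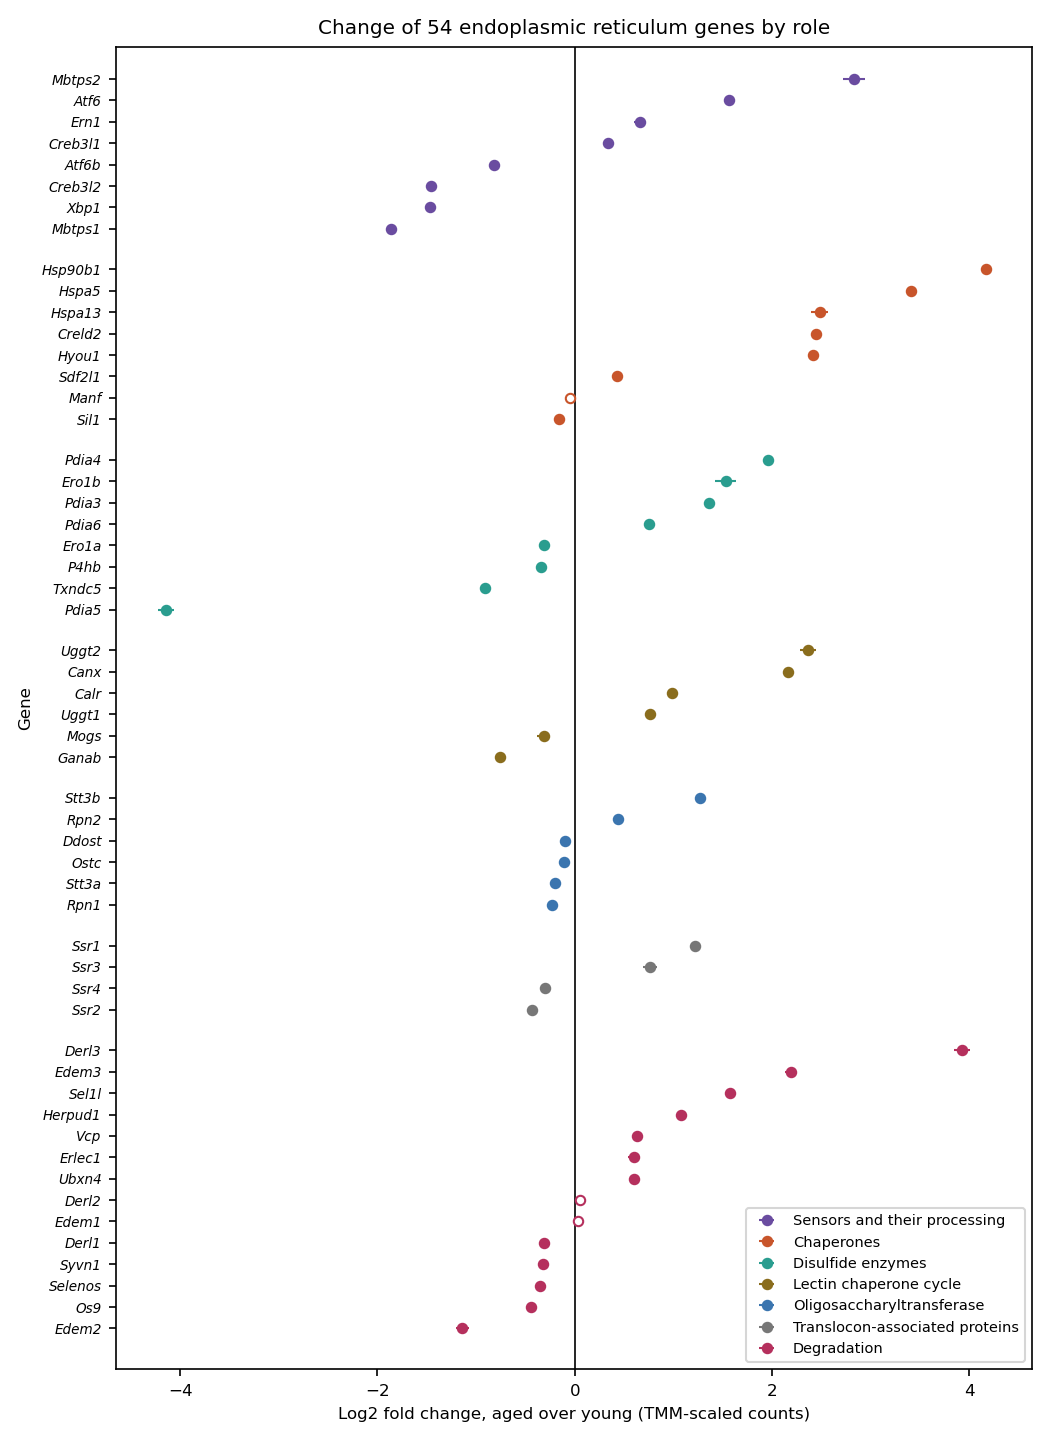
Log2 fold change of each member, aged over young, grouped by role. Points are edgeR estimates with standard errors, filled where the adjusted p is under 0.05 and open for Manf, Edem1 and Derl2. Chaperones reach from -0.16 to 4.17, and Pdia5 is the lowest point at -4.15.

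In all, the members took 1.58% ± 0.0086 of the counts of young libraries and 4.21% ± 0.0082 of those of aged ones (SD, n = 3 each). The chaperones accounted for most of that gain. They went from 0.145% to 1.74% of counts, and their summed level from 1635 ± 23.2 to 15499 ± 109 CPM, 9.48-fold more, whereas the lectin chaperone cycle went from 3158 ± 63.9 to 6024 ± 47.3 CPM and the disulfide enzymes from 6597 ± 72.1 to 8924 ± 58.5 CPM. Degradation genes summed to 2020.2 ± 23.5 to 2766 ± 21.3 CPM, and the translocon-associated proteins to 812 ± 16.5 to 979 ± 3.06 CPM, young to aged in both. The oligosaccharyltransferase differed 1.06-fold, from 2449 ± 24.8 to 2587 ± 28.4 CPM, and the sensors were the role whose sum was lower, from 1114 ± 8.67 to 701 ± 8.69 CPM. Shares of counts are not TMM-scaled and differ from these sums. By share the oligosaccharyltransferase went from 0.218% to 0.291% and the sensors from 0.0992% to 0.0788%. A sum is carried by its most abundant genes and gives long transcripts more weight. Most of the chaperone gain came from Hspa5, from 506 to 5386 CPM on average, and Hsp90b1, from 453 to 8165 CPM.

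**Figure D2:**
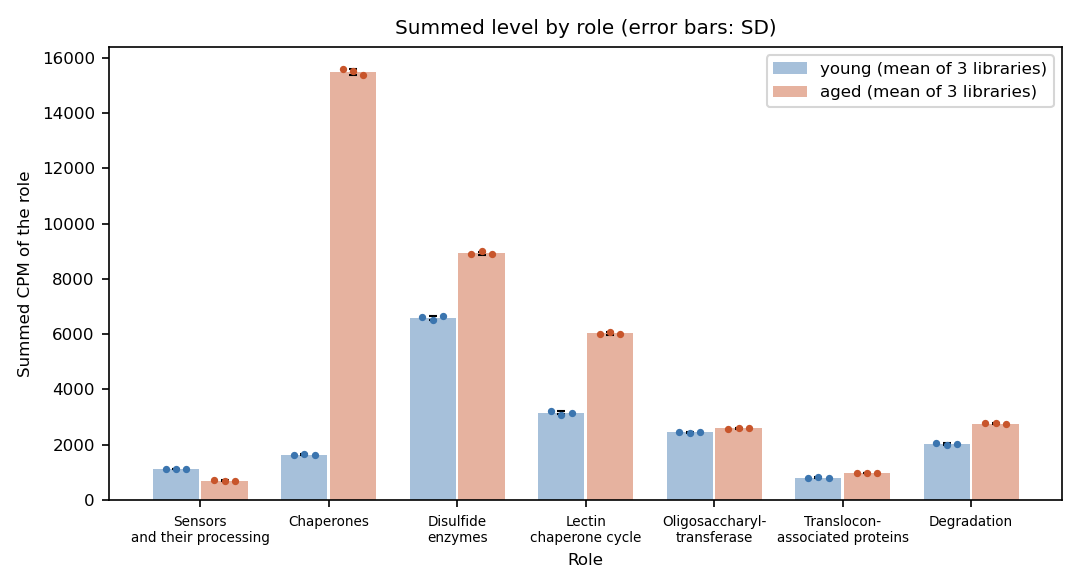
Summed CPM of the members of each role, with bars for the mean of 3 libraries, error bars for the SD and points for single libraries. The chaperone bar is 9.48-fold higher in aged cells, and the bar of the sensors is the one that is lower.

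Of the 8 chaperones, 6 rose and 1 fell, and the median log2 change was 2.43. Hsp90b1, which encodes the ER HSP90 chaperone GRP94, stood at 433, 489 and 436 CPM in the young libraries and at 8283, 8071 and 8139 CPM in the aged ones. This 18-fold rise (log2 change 4.17 ± 0.04, SE, adjusted p = 2.1e-21) was the largest of the 54, and every aged library was far above every young one. Hspa5 encodes BiP, the ER HSP70 that also holds the stress sensors inactive. Its levels were 499, 516 and 503 CPM in young and 5387, 5471 and 5299 CPM in aged libraries, a rise of 10.6-fold (log2 change 3.41 ± 0.03, adjusted p = 2.1e-22). Of all tested genes, 93.0% had a log2 change at or below that of Hspa5 and 96.1% one at or below that of Hsp90b1.

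The other chaperones split into a group that rose about as much as each other and a group near its young level. Hyou1, encoding GRP170, a nucleotide exchange factor of BiP, rose 5.35-fold from 234 ± 7.4 to 1250.2 ± 14.3 CPM (SD, n = 3 each). Creld2, an ER stress-responsive gene, rose 5.47-fold from 47 ± 2.63 to 257 ± 2.4 CPM, and Hspa13, an HSP70-like microsomal protein gene, rose 5.59-fold from 7.41 ± 0.808 to 41.4 ± 1.76 CPM. Sdf2l1, a partner of the BiP cochaperone system, rose only 1.35-fold. Manf, which encodes a secreted BiP-binding protein, had 251, 243 and 256 CPM in young and 238, 242 and 247 CPM in aged libraries. Those groups overlap, and Manf was not called (log2 change -0.04 ± 0.04, adjusted p = 0.24), but it was called lower without young replicate 2 (adjusted p = 0.028) and higher with library size alone. Sil1, the other exchange factor of BiP, fell 1.12-fold (adjusted p = 0.012), a direction that turned to a rise of 0.18 on the log2 scale with library size alone. Its call was lost with the stricter low-count filter (adjusted p = 0.054).

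**Figure D3:**
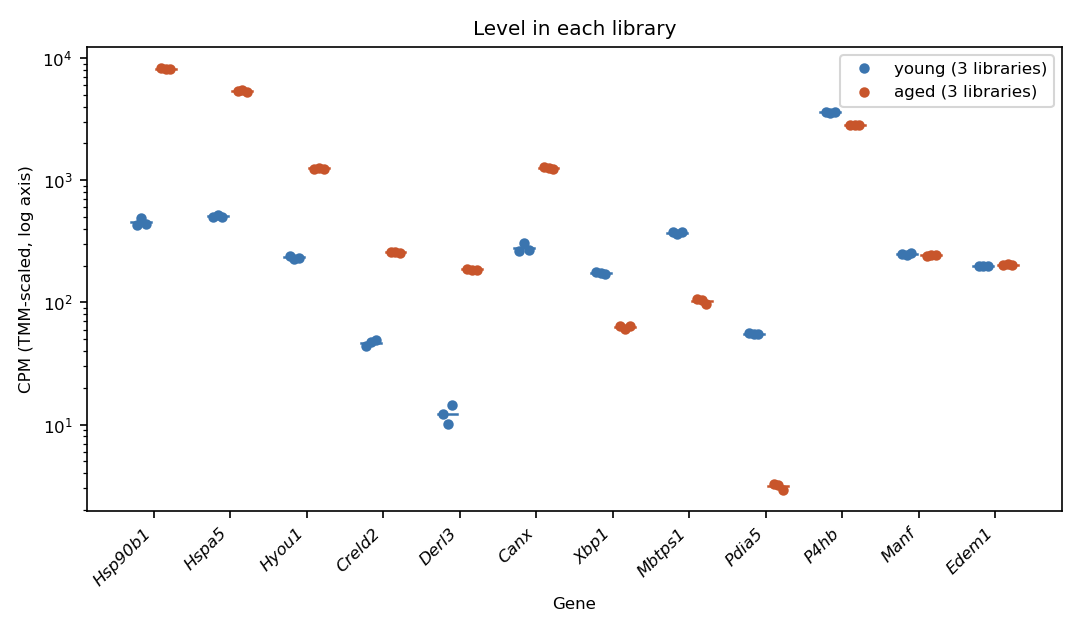
Level of 12 members in each library, in TMM-scaled CPM on a log axis, with a short line at each group mean. For Hsp90b1, Hspa5, Hyou1, Creld2, Derl3 and Canx every aged library lies above every young one, for Xbp1, Mbtps1, Pdia5 and P4hb every aged library lies below, Manf overlaps, and Edem1 lies slightly higher in the aged libraries.

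The sensors moved in opposite directions, 4 higher and 4 lower. Atf6, a membrane-bound transcription factor released by cleavage, had 68.7, 72.8 and 71.8 CPM in young and 208, 210.0 and 210.4 CPM in aged libraries and rose 2.95-fold (adjusted p = 2.5e-16). Ern1, which encodes the kinase and endonuclease IRE1, had 36.5, 36.9 and 34.1 CPM in young and 59.6, 56.8 and 53.3 CPM in aged libraries and rose 1.58-fold (adjusted p = 1.3e-08). Xbp1, whose messenger RNA is the substrate of IRE1, went the other way. It had 178, 175 and 171 CPM in young and 64.7, 61.1 and 63.9 CPM in aged libraries, a fall of 2.76-fold (log2 change -1.47 ± 0.04, adjusted p = 1.2e-15). Counts per gene do not tell spliced from unspliced Xbp1 RNA, so the activity of IRE1 was not measured.

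The 2 proteases that cleave ATF6 in turn in the Golgi showed the largest changes of the role. Mbtps1, encoding the site-1 protease, fell 3.63-fold, with 380.2, 363 and 377 CPM in young and 107, 104 and 96.9 CPM in aged libraries (adjusted p = 4.4e-17). Mbtps2, encoding the site-2 protease, was low in young libraries at 2.41, 2.82 and 2.74 CPM and stood at 18.9, 19.8 and 18 CPM in aged ones, 7.11-fold higher (adjusted p = 7.8e-14). In GRCr8 the gene of Mbtps2 overlaps that of Yy2, which rose by 2.66 on the log2 scale, and without a stated strand setting reads of overlapping genes may not be told apart. Among the ATF6 relatives, Atf6b fell 1.77-fold and Creb3l2, a factor known from cartilage secretion, fell 2.74-fold. Creb3l1, which encodes OASIS, a factor known from collagen secretion in osteoblasts, rose 1.26-fold. The median of the 8 sensors, -0.24, became 0.09 with library size alone, so no direction is given for the role.

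Disulfide enzymes spanned the widest range of any role, from -4.15 to 1.96 on the log2 scale, with 4 higher and 4 lower and a median of 0.22. Pdia5, a member of the disulfide isomerase family, had 56.2, 54.7 and 55.4 CPM in young and 3.27, 3.19 and 2.92 CPM in aged libraries. Its 17.7-fold fall (log2 change -4.15 ± 0.08, adjusted p = 6.1e-18) was the largest of the 54, and only 1.72% of all tested genes had a log2 change as low or lower. Pdia4, encoding ERp72, had 619, 602 and 611 CPM in young and 2354, 2392 and 2374 CPM in aged libraries and rose 3.89-fold (adjusted p = 1.0e-19).

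The remaining disulfide enzymes lay between these extremes. Pdia3, encoding ERp57, the isomerase that works with calnexin and calreticulin, rose 2.56-fold and Pdia6 rose 1.68-fold. P4hb encodes the founding disulfide isomerase, which is also a subunit of the collagen prolyl hydroxylase, and had 3638, 3524 and 3652 CPM in young and 2850.4, 2849 and 2823 CPM in aged libraries. It fell 1.27-fold (adjusted p = 2.7e-10), but stood at -0.01 on the log2 scale and was not called with library size alone (adjusted p = 0.77). Txndc5 fell 1.88-fold. Of the oxidases that recharge the isomerases, Ero1b rose 2.89-fold from 7.6 ± 0.926 to 22 ± 2.19 CPM, while Ero1a fell 1.24-fold from 159 ± 7.33 to 128 ± 4.73 CPM, a direction that turned to 0.03 with library size alone.

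In the lectin chaperone cycle, which holds glycoproteins in the ER until they fold, 4 genes rose and 2 fell, and the median log2 change was 0.88. Canx, encoding the membrane lectin calnexin, had 266, 306 and 269 CPM in young and 1272, 1272 and 1233 CPM in aged libraries, 4.49-fold higher (adjusted p = 1.3e-17). Calr, encoding its soluble relative calreticulin, had 2068, 1949.9 and 2008 CPM in young and 3934, 4026 and 4002 CPM in aged libraries and rose 1.99-fold (adjusted p = 3.7e-16). Neither gene's groups overlapped. Uggt2, one of the glucosyltransferases that send unfolded glycoproteins back into the cycle, rose 5.15-fold, with 12.8, 14.7 and 11 CPM in young and 64.8, 68.9 and 64.9 CPM in aged libraries. Its relative Uggt1 rose 1.7-fold. The glucosidases that trim glycans so that the lectins can bind were lower, with Ganab falling 1.69-fold from 625 ± 28.9 to 370.4 ± 1.96 CPM and Mogs 1.24-fold, the latter turning to 0.02 on the log2 scale with library size alone.

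The oligosaccharyltransferase showed smaller changes, with 2 subunits higher and 4 lower. Its catalytic subunits differed. Stt3a, which glycosylates chains as they pass the translocon, had 481, 489 and 489.6 CPM in young and 419.7, 425 and 426 CPM in aged libraries, a fall of 1.15-fold (adjusted p = 7.2e-06) that turned to 0.14 on the log2 scale with library size alone. Stt3b, which modifies sites that the first enzyme skipped, had 95, 109 and 103 CPM in young and 246, 245 and 250.3 CPM in aged libraries and rose 2.42-fold (adjusted p = 2.3e-14). Among the shared subunits Rpn2 rose 1.35-fold, with 527, 561 and 555 CPM in young and 727, 741 and 751 CPM in aged libraries. Rpn1, Ddost and the Stt3a-specific subunit gene Ostc fell by 1.17-fold, 1.07-fold and 1.08-fold, and all 3 were higher, by 0.11, 0.24 and 0.22 on the log2 scale, with library size alone. The calls of Ddost (adjusted p = 0.015) and Ostc (adjusted p = 0.012) were lost without aged replicate 1, at adjusted p of 0.077 and 0.057, and with the stricter low-count filter, at 0.17 and 0.11. The role's median of -0.10 became 0.23 with library size alone.

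The translocon-associated protein complex, which helps nascent chains enter the ER, split evenly by subunit, with a median log2 change of 0.23. Ssr1 had 139, 152 and 145 CPM in young and 345, 334 and 337 CPM in aged libraries and rose 2.33-fold. Ssr3 rose 1.69-fold, with 122, 159 and 124 CPM in young and 228, 228 and 229 CPM in aged libraries, so that young replicate 2 stood above the other young libraries and still below the aged ones. Ssr2 fell 1.35-fold, and Ssr4 fell 1.23-fold but turned to 0.04 on the log2 scale with library size alone.

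Of the 14 degradation genes, 7 rose (50%, against 44.7% of all tested genes), 5 fell (35.7%, against 41.8%) and 2 were not called. These shares lie near those of all genes. The median log2 change of the role was 0.33. Derl3, a derlin of the channel through which proteins leave the ER, had 12.1, 10.1 and 14.5 CPM in young and 188, 185 and 185 CPM in aged libraries. It rose 15.2-fold (log2 change 3.93 ± 0.08, adjusted p = 1.2e-17), next to Hsp90b1 the largest rise of the 54. Of the other derlins, Derl1 fell 1.24-fold, turning to 0.02 with library size alone. Derl2 was not called at 62.8, 69.3 and 65.8 CPM in young and 69.2, 65.3 and 70.6 CPM in aged libraries, which overlap (log2 change 0.05 ± 0.05, adjusted p = 0.37), but it was called higher with library size alone (log2 change 0.39, adjusted p = 3.6e-06). In GRCr8 the gene of Derl3 overlaps that of Smarcb1, which fell from 81.5 ± 2.06 to 29.3 ± 0.919 CPM.

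The ubiquitin ligase of the pathway and its partner also parted. Sel1l, the adaptor that brings clients to the ligase, had 150.2, 147 and 157 CPM in young and 458, 456 and 439 CPM in aged libraries, a rise of 2.98-fold (adjusted p = 8.0e-17). Syvn1, encoding the ligase HRD1, had 86.2, 89.1 and 90.0 CPM in young and 72.4, 69.3 and 70.8 CPM in aged libraries, a fall of 1.25-fold (adjusted p = 3.8e-06) that turned to 0.02 on the log2 scale with library size alone. Herpud1, a scaffold of the ligase complex and a stress-responsive gene, rose 2.11-fold from 83.4 ± 4.25 to 176 ± 3.52 CPM.

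The EDEM proteins trim mannose from glycoproteins marked for degradation, and each of their genes behaved differently. Edem3 rose 4.56-fold, with 33.9, 31.9 and 28.9 CPM in young and 147, 142 and 143 CPM in aged libraries (adjusted p = 1.9e-16). Edem2 fell 2.2-fold from 38.6 ± 0.847 to 17.5 ± 0.912 CPM. Edem1 had 198, 200.2 and 198 CPM in young and 202, 207 and 202 CPM in aged libraries. It was not called (log2 change 0.04 ± 0.03, adjusted p = 0.31), although its groups did not overlap, and it was called higher with library size alone and with a stricter low-count filter (adjusted p = 0.031). Of the lectins that read the trimmed glycans, Os9 fell 1.36-fold and Erlec1 rose 1.52-fold. Vcp, encoding the p97 ATPase that pulls clients into the cytosol, rose 1.55-fold from 401 ± 3.93 to 621 ± 5.83 CPM, and its recruiter Ubxn4 rose 1.52-fold. Selenos, another p97 partner, fell 1.27-fold and was not called with library size alone (log2 change -0.01, adjusted p = 0.77).

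Ratios between related members within a library do not depend on how libraries are scaled, so 18 pairs of relatives or successive enzymes were compared in this way. The groups did not overlap in any pair. Over all tested genes they did not overlap for 87.5% of single genes, and no share over other pairs of genes was taken. A gap in these pairs therefore says little by itself. Each pair gave the smallest two-sided p that an exact permutation of 3 against 3 libraries allows, p = 0.10. It was 0.10 after Benjamini-Hochberg adjustment over 18 pairs, and it cannot pass 0.05. The ratio of Mbtps1 to Mbtps2 counts differed most, being 25.8-fold lower in aged libraries, with a log2 ratio of 7.13 ± 0.15 in young libraries and 2.44 ± 0.06 in aged ones. Derl1 to Derl3 was 19.1-fold lower and Edem2 to Edem3 10.1-fold lower. Atf6 counts were below Atf6b counts in every young library and above them in every aged one, with log2 ratios of -1.24 ± 0.09 in young libraries and 1.15 ± 0.01 in aged ones. Stt3a to Stt3b was 2.79-fold lower, with 2.25 ± 0.09 in young libraries and 0.78 ± 0.01 in aged ones. Ero1a to Ero1b was 3.59-fold lower and Calr to Canx 2.26-fold lower. BiP against its exchange factor went the other way, with Hspa5 to Hyou1 1.99-fold higher. The smallest difference was that of Derl1 to Derl2, 1.29-fold. Because lengths differ between genes, the level of a ratio does not compare amounts of 2 transcripts.

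**Figure D4:**
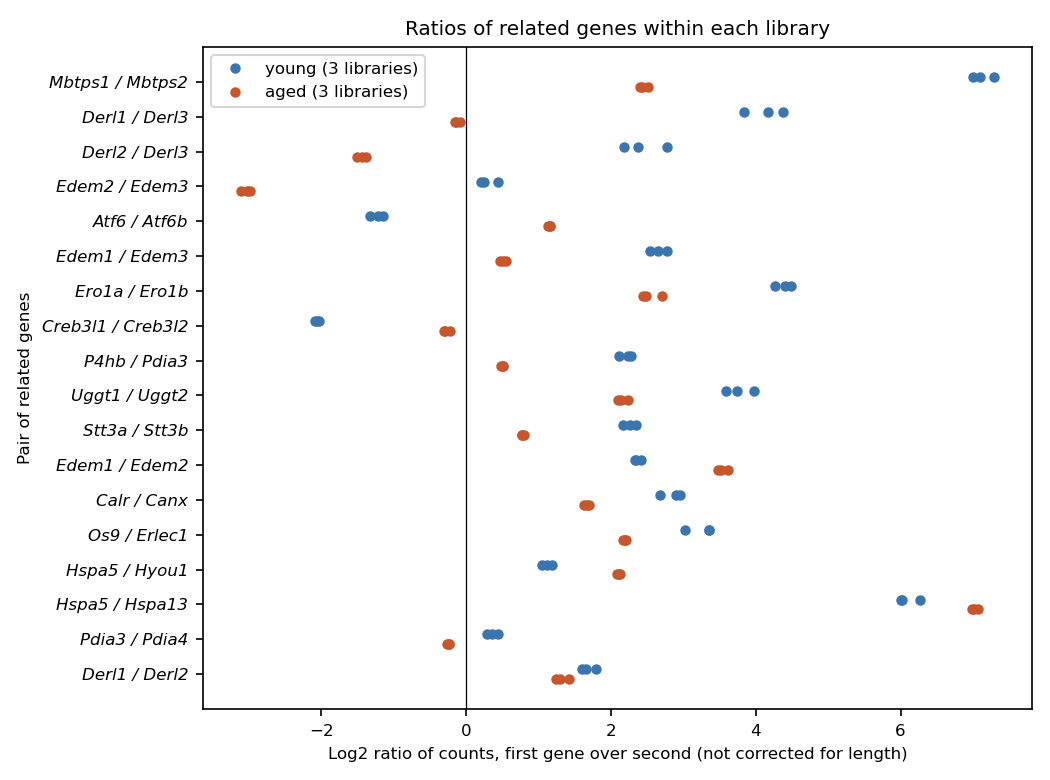
Log2 ratio of the counts of 2 related members in each library, not corrected for length, ordered by the size of the change. Young and aged libraries do not overlap in any of the 18 pairs, with the largest change for Mbtps1 to Mbtps2 and the smallest for Derl1 to Derl2. For single genes the groups do not overlap in 87.5% of all those tested.

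Read against the promoter elements shown above, the 8 members with ERSE comprised 7 that rose and 1 that fell, and their median log2 change was 2.31. Over all tested genes 44.7% were called higher and 41.8% lower. The 38 members with a window but no ERSE comprised 18 that rose, 18 that fell and 2 not called, with a median of 0.04. With ERSE-II counted as well, 9 of 10 members rose and the median was 2.29, against -0.03 for the 36 with neither. Of the members with ERSE, Hsp90b1 rose most, and Derl3 and Hspa5 followed. Ero1b and Calr rose by 1.53 and 0.99 on the log2 scale, and Xbp1 had a change of -1.47. Not all large rises came with a match in these windows, since Mbtps2, Hspa13, Uggt2, Edem3 and Pdia4 had none and rose by 1.96 to 2.83 on the log2 scale. By role, 3 of the 8 members with ERSE are chaperones and 2 belong to the lectin chaperone cycle, roles with medians of 2.43 and 0.88. The others are a sensor, a disulfide enzyme and a degradation gene, from roles with medians of -0.24, 0.22 and 0.33. Element and role therefore cannot be told apart in this comparison. These are descriptions of a few genes, and whether the element bears on their changes was not tested.

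**Figure D5:**
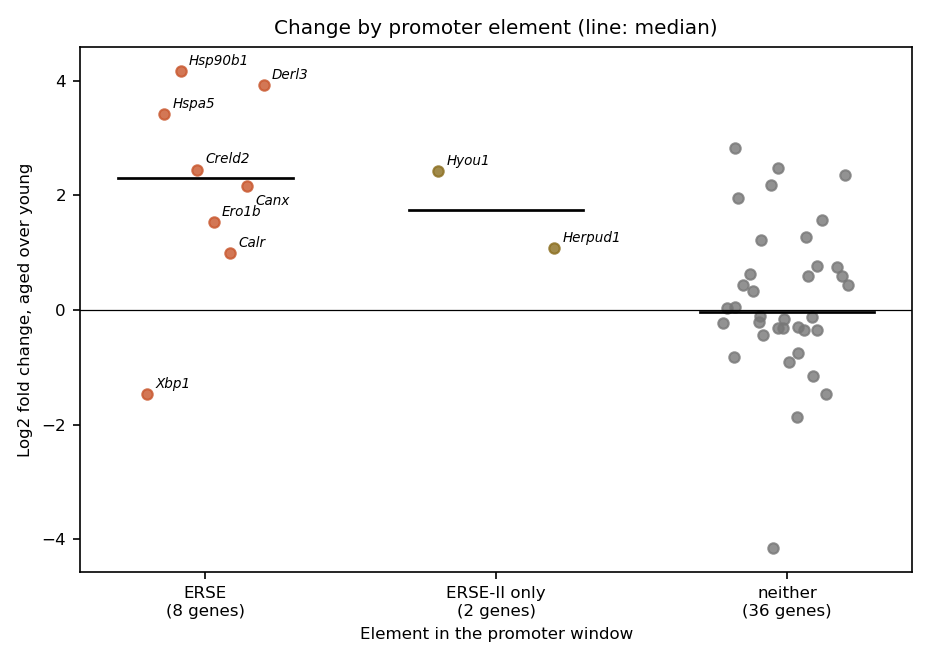
Log2 fold change, aged over young, of the 46 members with a promoter window, by exact match to ERSE, to ERSE-II only, or to neither, with a line at each median. Of the members with ERSE, Xbp1 alone lies below 0, while those with neither are spread on both sides.

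Other genes of the pathway, from lists drawn up by function, gave the surroundings of these changes. In the PERK arm, which slows translation under ER stress, 5 of 6 genes rose and 1 fell. Over all tested genes 44.7% were called higher and 41.8% lower. The median log2 change of the arm was 0.65 against 0.05 over all tested genes. Ddit3, encoding the factor CHOP, rose 2.71-fold from 15.8 ± 0.86 to 42.7 ± 0.81 CPM, and Trib3 rose 2.75-fold. The kinase gene Eif2ak3, which encodes PERK itself, rose 1.78-fold, Ppp1r15a, which encodes the feedback phosphatase subunit GADD34, 1.39-fold, and Atf4 1.17-fold. Chac1, a target of that arm, fell 1.23-fold, a log2 change of -0.30 that is smaller than the shift of 0.34 between scalings. On the linear scale these rises were below those of Hspa5 and Hsp90b1. The difference itself was not tested.

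Most other ER lists had no common direction. Their median log2 changes were -0.03 for oxidoreductases, -0.30 for the dolichol pathway, -0.21 for the translocon, -0.66 for oligosaccharyltransferase subunits and 0.17 for degradation. All but the -0.66 are smaller in size than the shift of 0.34 between scalings. The alternative settings were not summarized for these lists. Of 14 further oxidoreductases 6 rose and 6 fell, from Prdx4, an ER peroxiredoxin, 2.33-fold lower, to Tmx3, a transmembrane isomerase, 3.5-fold higher. Of 22 genes that build the dolichol-linked glycan 8 rose and 12 fell, between Srd5a3 (2.39-fold lower), which makes dolichol, and the glucosyltransferase gene Alg10 (6.24-fold higher). Among 15 translocon and signal peptidase genes 6 rose and 8 fell, including the channel subunit gene Sec61g (1.85-fold lower) and the peptidase subunit gene Spcs3 (4.2-fold higher). Of 6 further oligosaccharyltransferase subunits 5 fell, led by Tmem258 (2.51-fold), and Magt1 rose 2.94-fold. Among 19 tested degradation genes 11 rose and 5 fell, with the ligase genes Marchf6 2.23-fold higher and Rnf5 1.97-fold lower. Of the cargo, 10 procollagen and matrix genes were listed, and all 10 fell, with a median of -0.92. Of all tested genes 41.8% were called lower. The whole load of secreted and membrane proteins was not measured. Col1a1 fell 1.79-fold from 19586 ± 202 to 10932 ± 41.6 CPM, and Col5a1 fell 4-fold.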

How the data were processed

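The authors deposited raw read counts per gene symbol, 1 column per library, with no normalization. The tools were fastp, HISAT2 and HTSeq, per the submitters' processing notes. For the genome build, annotation and strand setting the entry is: not given in the sources used here. RNA was extracted with TRIzol and libraries made with a VAHTS kit, per the labels' protocols. Columns were matched to samples by library name. Counts were tested with edgeR 4.0.16 (R 4.3.3): filterByExpr with a minimum count of 10, TMM scaling, quasi-likelihood F test with group as the only term, and Benjamini-Hochberg adjustment over 14273 tested genes. CPM values are TMM-scaled, errors are SD over 3 libraries, and standard errors of log2 changes are the change divided by the square root of F. Ratios within libraries used 0.5 added counts. The procedure was tested on simulated data in which few genes changed, equally often up and down. In the real data most genes were called, so the simulation does not cover the choice of scaling. Alternatives were RLE scaling, library size alone, no filter and a minimum count of 50, DESeq2 1.42.0, limma-voom (limma 3.58.1), a replicate block and leaving out each library. The members, lists and tests were chosen with earlier results of these data known. All members may be named, those with values in each library being the 2 largest changes of each role and 12 genes that stand for a role, with the 3 uncalled members added after their values were seen. Of each other list the called gene with the largest change in each direction at a mean of at least 5 CPM is named. A total of 0 counts in a library allows up to 3 counts, or 0.0688 to 0.0840 CPM, for counting error only. RefSeq GRCr8 supplied symbols (54 of 54 matched) and promoter windows, the first listed where a symbol had several. In GRCr8, 18 members overlap another gene, and their reads may be shared. Protein length and retrieval signals, planned as descriptions, and transcript length and base composition were not analysed here.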

Additional observations from a re-analysis of the deposited data

How the results depend on the processing

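Of the 54 members, 39 kept their direction and their side of the threshold under all 13 alternatives. RLE scaling, no filter, DESeq2, limma-voom and the replicate block changed the call of no member. With library size alone, 10 members were called lower instead of 22 and the median member change was 0.77 instead of 0.43. In that setting the log2 changes of Sil1 (0.18), Manf (0.29), Ero1a (0.027), Mogs (0.022), Stt3a (0.14), Ostc (0.22), Ddost (0.24), Rpn1 (0.11), Ssr4 (0.038), Syvn1 (0.017) and Derl1 (0.023) turned positive, as did the medians of the sensors (0.093) and the oligosaccharyltransferase (0.23). These members have small changes, and the shift of all genes in that setting was of like size. The stricter filter gave a median of 0.48 and lost the calls of Sil1, Ostc and Ddost. Leaving out each library gave medians of 0.41 to 0.45, 29 members higher each time and 20 to 23 lower, and the log2 change of Derl2 ranged from -0.0046 (without young replicate 1) to 0.083. The labels do not say whether equal replicate numbers pair libraries. Deviations of same-numbered libraries from their group means correlated at -0.01 to 0.03 across genes. Those of differently numbered libraries correlated at -0.03 to 0.02. With 3 libraries in each group these values cannot settle whether the libraries were paired. The replicate block gave 29 members higher and 22 lower, as without it, and a median of 0.43. Precision is lowest where levels are, which were 2.66 CPM on average for Mbtps2 and 7.41 for Hspa13 in young and 3.13 for Pdia5 in aged libraries.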

Other observations

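The exact ERSE match was rare enough to list in full. Outside the 54 members it occurred in 14 promoter windows, of which 8 belong to distinct tested genes. Of these 6 rose and 2 fell, where of all tested genes 44.7% were called higher and 41.8% lower. Their median was 0.58 on the log2 scale and that of all tested genes 0.05. Among the 8, the largest rise was that of Dnajc3, a cochaperone of BiP that also inhibits PERK, at 2.76 on the log2 scale. Ppm1l, a phosphatase gene, followed at 1.72. Zfand2a, Ankmy2, Hnrnpa3 and Zfp57 rose by 0.93, 0.70, 0.46 and 0.24. Birc5, which encodes the cell division protein survivin, fell by 5.46 and Pan2, a deadenylase subunit gene, by 0.32. The changes of Zfp57 and Pan2 are smaller than the shift of 0.34 between scalings. All these values are given as a description with no test.

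The median coefficient of variation of the members between libraries was 3.67% in young and 1.72% in aged libraries. It was 7.54% and 5.29% over all tested genes, which include less abundant ones. Young replicate 2 stood apart from the other young libraries. The chi-square between the counts of 2 libraries, per degree of freedom, was 11.1 and 9.13 in its pairs. It was 3.64 for the other young pair and 3.16 to 3.63 between aged libraries. The part of young replicate 2 in the higher young variation was not tested.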
